A study of Arabidopsis thaliana with 2 samples.

Results

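Transcripts of 3 gene families that link the plant cytoskeleton to other parts of the cell were compared between 5-week-old Arabidopsis thaliana plants of the csb3 mutant and of its wild type, Col-0. The families are IQD (IQ-domain), NET (Networked) and TRM (TON1 Recruiting Motif). Members were the nuclear genes whose RefSeq symbol begins with IQD, NET or TRM and a digit, and for which the annotation of the array pairs a probe set with that gene alone. This rule uses names and no signal, and it gave 36 genes of the 13217 nuclear genes with such a probe set. Another 33 genes carry a symbol of this form but were not analysed here, because no single-gene probe set is listed for them in the annotation used. The members were 11 of 24 IQD genes, 10 of 12 NET genes and 14 of 29 TRM genes. The remaining member, TRM82 (AT1G03110), shares only the letters. RefSeq describes it as a tRNA modification gene, so it is given apart from the cytoskeleton genes.

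Both samples were whole plants in the Col-0 background. According to the sample labels they were raised for 5 weeks at 23 °C and 60% humidity with 10 h of light and 14 h of darkness. Labelled material made from total RNA was hybridised to Affymetrix ATH1 arrays. csb3 (constitutive subtilisin3) is a disease-resistant mutant with a lesion in HDS, an enzyme of the plastid route to isoprenoids, and the annotation used pairs no probe set with HDS, so the genotype could not be checked on its own gene. Each genotype is represented by 1 array. Differences between the genotypes thus could not be set against the spread between replicates, and none carries a p-value. Whole-plant RNA also cannot tell fewer cells of a type from less RNA per cell.

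Plant cells keep arrays of microtubules under the plasma membrane and a network of actin filaments that carries organelles. TRM proteins bring the TON1 protein and a phosphatase of the PP2A type to microtubules, where the complex helps to form the preprophase band that marks the plane of division, and the LONGIFOLIA members of the family promote organ elongation. IQD proteins bind calmodulin through IQ motifs, and many of them lie on microtubules and hold kinesin light chain-related proteins there. NET proteins bind actin filaments through a shared N-terminal domain, and different NET proteins anchor the filaments at different membranes.

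The values are MAS5 signals on a linear scale, 1 per probe set. A signal of 50 was taken as the lowest level to be compared, and lower signals were raised to 50 before a ratio was formed. A ratio with 1 such signal is a bound and is written as at least. A gene was called up or down in csb3 at a 2-fold ratio. Of the 22810 probe sets on the array, 14407 reached 50 on at least 1 array and 12540 on both, and the latter had a median log2 ratio of 0.08. Probe sets that read the same nuclear gene gave a spread for a single log2 ratio, with an SD of 0.65 over 46 genes. It is called the technical SD below. It was close to the SD of 0.67 over all 12540 probe sets, so it does not separate technical spread from differences between genes. The technical SD serves only as a size to set ratios against and is not a measured noise level. The 2 arrays differed in their controls. The 3′ to 5′ signal ratio, a sign of RNA quality, was 2.06 for actin in Col-0 against 4.91 in csb3, 1.29 against 1.40 for GAPDH and 2.66 against 1.98 for ubiquitin, so the controls did not move in 1 direction. The 25S rRNA control gave 384.4 in Col-0 against 17.3 in csb3. The 18 spike-in probe sets had lower signals in csb3, by a median factor of 1.97. The part of these differences in the members' ratios was not tested, beyond the scalings given with each result.

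Few members differed by 2-fold between the genotypes. Of the 36 members, 1 was up in csb3 and 0 were down, that is, 2.78% and none, against 4.56% up and 2.74% down over all probe sets. Among the 20 members that reached 50 on at least 1 array the share that was up was 5%, against 7.23% up and 4.33% down over all probe sets at that level. The 1 call is too few to set the members apart from the array. The median log2 ratio of these 20 was 0.08, beside 0.07 for all probe sets at that level. The plot of the members' signals shows how close the 2 arrays were for most of them.

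**Figure D1:**
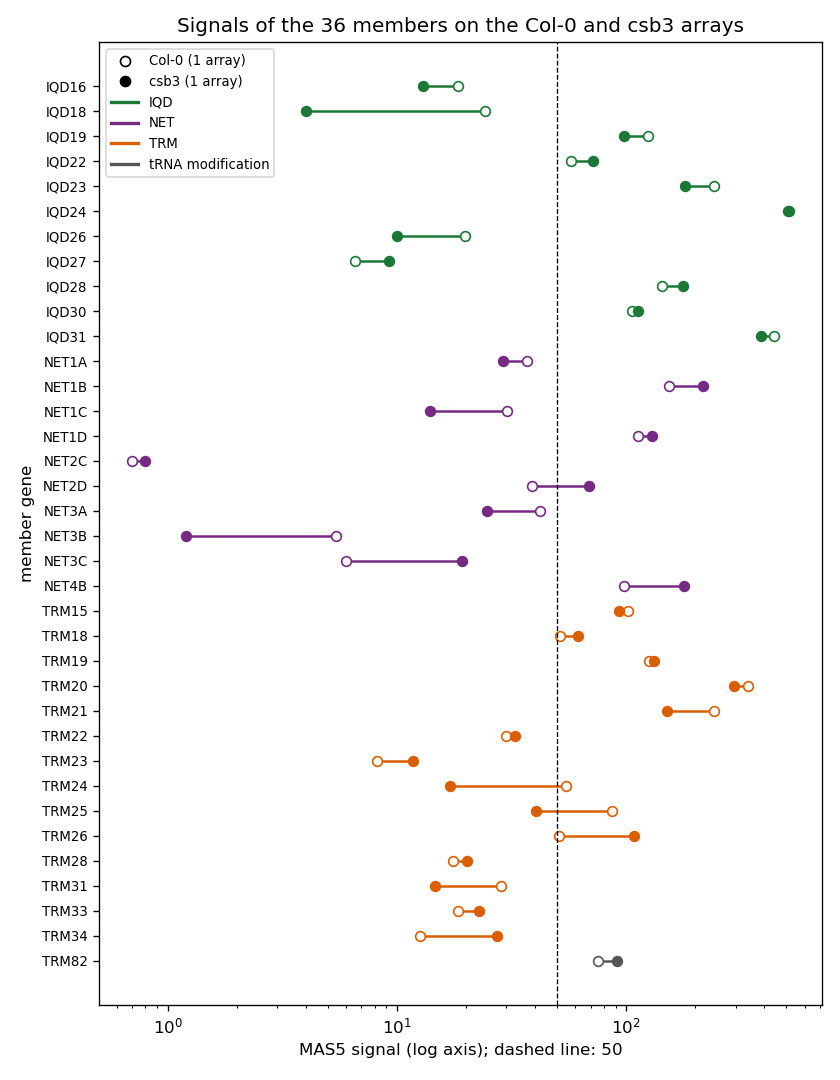
MAS5 signals (log axis) of the 36 members, with an open circle for the Col-0 array and a filled circle for the csb3 array joined by a line in the colour of the family. The dashed line marks a signal of 50, and 16 members lie below it on both arrays.

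The spread among the members was narrower than that of the array as a whole. The 17 members measured at 50 or more on both arrays had log2 ratios from -0.68 to 1.09 with an SD of 0.45, whereas the SD was 0.67 over all 12540 such probe sets. Ratios within 0.5 of 0 were found for 14 of the 17 (82.4%), compared with 60.4% of the probe sets. This is a description of 1 array pair and was not tested. Of these 17, TRM26, NET4B and TRM21 lay beyond the technical SD of 0.65, and 0 lay beyond 2 of these SDs. Ratios of that size are common on the array, and 83.3% of the 12540 probe sets lay inside the range of the 17 members. The share of probe sets beyond the technical SD was not counted, so these counts do not set the members apart. For TRM25, TRM24 and NET2D, measured on 1 array only, the ratio is a bound. The bound of TRM25 already lay beyond the SD, and for the other two it does not place the ratio on either side.

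**Figure D2:**
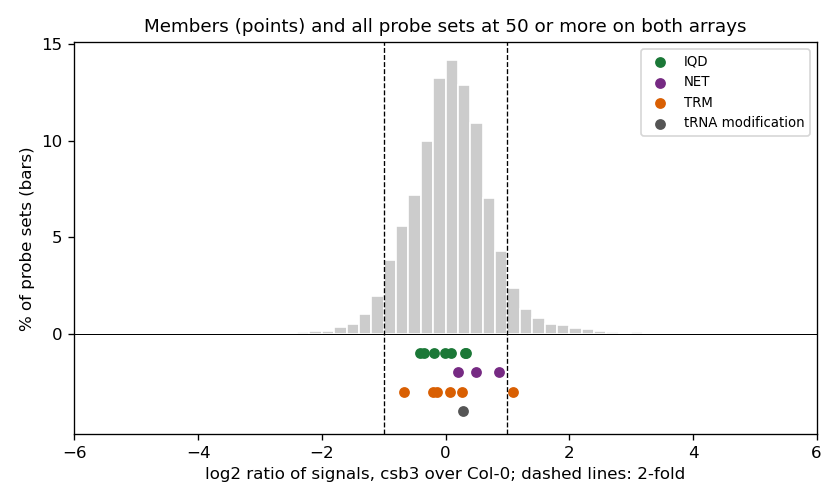
Log2 ratio of csb3 to Col-0 signals (horizontal axis) for the 12540 probe sets that reached 50 on each array, as the percentage in each bin of 0.2 (bars), and for the 17 members at that level (points below the bars, 1 row per family). All member points except that of TRM26, at 1.09, lie between the dashed 2-fold lines.

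The TRM family held the single member past 2-fold and also the lowest ratios. TRM26 (AT2G17550) gave a signal of 51.0 in Col-0 against 108.5 in csb3, so it was 2.13-fold higher in csb3. Its Col-0 signal is barely above the lowest level compared, and the call was lost when the level was raised to 100 (log2 ratio 0.12), when 32 was added to every signal instead (0.76) or when the arrays were scaled on the reference genes TIP41 and SAND (0.86). The next member below the 2-fold limit was NET4B, at 1.83-fold.

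In the opposite direction, TRM25 (AT5G62170) had 86.4 in Col-0 against 40.4 in csb3, at least 1.73-fold higher in Col-0. TRM21 (AT5G43880) had 241.8 in Col-0 against 151.4 in csb3, a 1.60-fold difference with a log2 ratio of -0.68. Neither reached 2-fold, and with scaling on the spike-in controls the ratio of TRM21 changed sign to 0.31. TRM24 (AT5G51850) had 54.8 in Col-0 against 17.0 in csb3, at least 1.10-fold higher in Col-0. For TRM24 and TRM25 the csb3 signals lay under 50, so the sizes of their differences rest on the level chosen: with a floor of 20 the log2 ratio of TRM24 was -1.45 and that of TRM25 -1.10, both past 2-fold.

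The other measured TRM genes differed by less than the technical SD. TRM20 (AT4G28760) had 340.1 in Col-0 against 296.4 in csb3. TRM19 (AT3G53540) had 125.9 and 131.9, and TRM15 (AT4G00440) had 101.8 and 92.8. TRM18 (AT2G39435), with 51.2 in Col-0 against 61.6 in csb3, had a log2 ratio of 0.27, the highest of these 4. The lowest of them was that of TRM20, at -0.20. Over the 8 measured TRM genes the median log2 ratio was -0.13, with 3 ratios above 0 and 5 below. TRM24 and TRM25 passed the lowest level compared only on the Col-0 array, so their ratios in the deposited values could only be below 0. The 6 TRM genes measured on both arrays had a median of -0.03, so the lower median of the 8 rests on these bounds. Scaling on the spike-in controls turned the median of the 8 to 0.81.

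A further 6 TRM genes, TRM22, TRM23, TRM28, TRM31, TRM33 and TRM34, were below 50 on both arrays, with signals from 8.2 to 32.9. No fold is given for them. The TRM genes of best known function, such as the LONGIFOLIA genes and those of the preprophase band, are not among the 14 members.

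The ratios of the IQD family lay close to 0 in the deposited values. All 7 measured members reached 50 on both arrays, and their log2 ratios ran from -0.41 to 0.33 with a median of -0.02 and an SD of 0.30. With scaling on the spike-in controls all 7 were above 0. IQD24 (AT5G07240) had 513.7 in Col-0 against 508.3 in csb3, a log2 ratio of -0.02 and the ratio nearest to 0 of the 20 measured members in the deposited values. IQD31 (AT1G74690) had 443.3 in Col-0 against 388.2 in csb3.

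IQD23 (AT5G62070) had 240.5 in Col-0 against 181.0 in csb3, which at 1.33-fold was the widest difference in the family. IQD19 (AT4G14750) had 124.4 and 97.7, with Col-0 again 1.27-fold higher. These differences are smaller than the technical SD.

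On the other side, IQD28 (AT1G14380) had 143.1 in Col-0 against 177.7 in csb3, 1.24-fold higher in csb3. IQD22 (AT4G23060) had 57.3 and 71.8, 1.25-fold higher in csb3. IQD30 (AT1G18840) had 105.9 and 113.0. Thus 3 IQD ratios were above 0 and 4 below.

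The other 4 IQD members were below 50 on both arrays. IQD16 (AT4G10640), which is also known as ABS6 and acts with the microtubule-severing protein katanin, had 18.5 in Col-0 against 13.0 in csb3. IQD18 (AT1G01110) had 24.2 and 4.0, IQD26 (AT3G16490) had 19.9 and 10.0, and IQD27 (AT1G51960) had 6.6 and 9.2. Signals this low do not order the genotypes.

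The 3 NET genes measured on both arrays had higher signals in csb3, with log2 ratios of 0.19 to 0.87. Most probe sets at that level also had ratios above 0, with a median of 0.08. None of the 3 genes reached 2-fold, and the ratio of NET1D fell below 0 under 2 of the 5 scalings. NET2D passed the limit of 50 only on the csb3 array, so its ratio in the deposited values could only be above 0. NET4B (AT2G30500), a member of the group that links actin to the membrane of the vacuole, had 97.8 in Col-0 against 178.8 in csb3, 1.83-fold higher in csb3 with a log2 ratio of 0.87. NET1B (AT4G14760) had 154.0 and 216.4, 1.41-fold higher. NET1D (AT1G03080) had 112.8 and 129.1, 1.14-fold higher. NET2D (AT2G22560), of a group best known from pollen tubes, had 39.0 in Col-0 against 69.0 in csb3, at least 1.38-fold higher.

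The median of the 4 NET ratios was 0.48, which is 0.40 above the median of the array. The IQD median was 0.09 and the TRM median 0.21 below the array median. The array median holds no bounds, as its probe sets passed the limit on each array. The NET median includes NET2D, which could only be above 0. The TRM median includes TRM24 and TRM25, which could only be below 0. Without these bounds the NET median was 0.49 over 3 genes and the TRM median -0.03 over 6. Under scaling on the reference genes and under quantile normalisation 3 of the 4 NET ratios stayed above 0, NET1D being the exception. All 4 were above the array median in both cases. These counts include NET2D, whose ratio is a bound. The ratios of NET1B and NET1D were within the technical SD, that of NET4B was beyond it and that of NET2D is a bound (0.82 in log2 with a floor of 20), and the difference between the families was not tested, since 1 array per genotype leaves only genes, which are not replicates.

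The remaining 6 NET members were below 50 on both arrays. NET1A (AT3G22790), which marks actin at the plasma membrane and plasmodesmata and is best known from roots, had 36.9 in Col-0 against 28.9 in csb3. NET1C (AT4G02710) had 30.3 and 13.9. All 3 members of the NET3 group were dim. NET3A (AT1G03470) had 42.0 and 24.7. NET3B (AT4G03153), which acts between actin and the endoplasmic reticulum, had 5.4 and 1.2. NET3C (AT2G47920), found where the endoplasmic reticulum touches the plasma membrane, had 6.0 and 19.3. NET2C (AT5G10500), of the pollen group, had 0.7 and 0.8.

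TRM82, the tRNA gene, had 75.4 in Col-0 against 91.3 in csb3, a log2 ratio of 0.28. In yeast the protein of this name is the partner subunit of a tRNA methyltransferase. Leaving it out changed the median of the measured members from 0.08 to 0.07 and no count of calls in the deposited values, and it lowered the count up under spike-in scaling from 11 to 10.

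Some members lie near each other in the genome, by the gene order that RefSeq gives for the TAIR10.1 assembly. IQD19 and NET1B are direct neighbours on chromosome 4, with 0 protein-coding genes between them. Their log2 ratios were -0.35 and 0.49. They differed by 0.84, which is less than 0.92, the technical SD of a difference between 2 ratios. On chromosome 5, IQD23 and TRM25 are separated by 10 protein-coding genes and both had lower signals in csb3. On chromosome 1, NET1D and TRM82 are separated by 4 and both had higher signals in csb3. None of these pairs was compared by a test.

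Genes that work with these families were examined through 10 lists made from gene symbols. Only 24 of their 204 genes have a single-gene probe set, so the lists are described by their members alone. Of the 24, 2 were up in csb3 (8.33%, or 10.5% of the 19 measured, against 4.56% and 7.23% over the array), 0 were down and 5 were below 50 on both arrays. So few calls set none of the lists apart. The lists of direct IQD partners, of NET partners, of actin-binding proteins and of other IQ-motif proteins have no member with such a probe set.

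Tubulins, the subunits of the microtubules on which TRM and many IQD proteins lie, did not reach 2-fold in any of the 7 cases measured, of 15 genes. TUA6 had 2799 in Col-0 against 2413 in csb3, and TUB6 had 845.5 and 672.2. The widest difference was that of TUB5, with 864.0 in Col-0 against 500.1 in csb3, a log2 ratio of -0.79. TUB7 stood at the other end, with 252.2 and 371.2 and a log2 ratio of 0.56. The median over the 7 was -0.26, beside 0.07 for all probe sets that reached 50 on at least 1 array.

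Among direct partners of TRM proteins, only TON1B has a single-gene probe set, of 24 genes listed. It had 118.7 in Col-0 against 130.4 in csb3, a log2 ratio of 0.14. Microtubule-associated proteins were represented by the SPIRAL1 family, which keeps growth straight. SPR1 had 1581 in Col-0 against 1679 in csb3, SP1L3 had 1266 and 1167, and SP1L4 had 123.4 and 91.7. On the actin side, ACT11, an actin of reproductive tissues, had 184.2 and 171.7, while the pollen actin ACT12 had 7.6 and 10.2. The myosin XI-I, which moves the nucleus, had 232.1 in Col-0 against 156.1 in csb3, a log2 ratio of -0.57.

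The calmodulin-like proteins, calcium sensors related to the calmodulins that IQD proteins bind, included both of these genes. CML41, which acts at plasmodesmata during immune responses, had 55.0 in Col-0 against 295.5 in csb3, 5.37-fold higher in csb3. CML37, a calcium sensor of the wound response, had 17.2 and 120.3, at least 2.41-fold higher. CML23 had 45.6 and 92.5, at least 1.85-fold higher, and was not called. Its Col-0 signal lay under 50, so this bound does not place it below 2-fold. The others measured were CML42, CML38 and CML30, with log2 ratios of -0.17, -0.10 and -0.40. No calmodulin itself has a single-gene probe set in the annotation used.

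**Figure D3:**
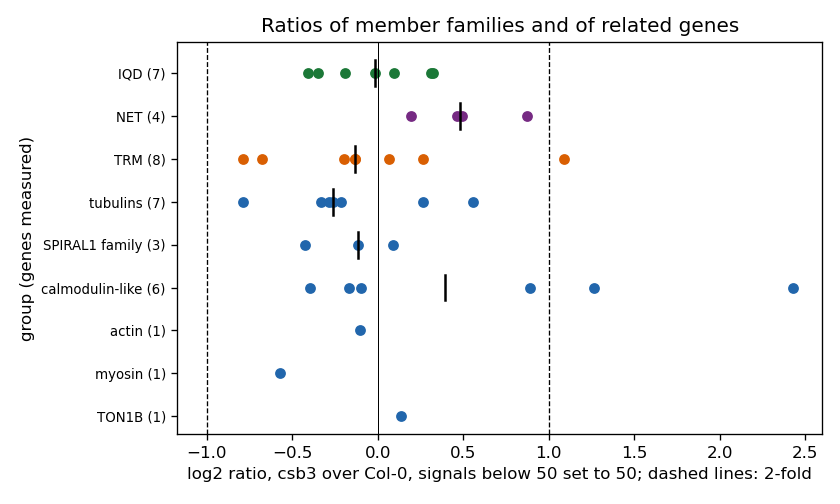
Log2 ratio of csb3 to Col-0 (horizontal axis) for each measured gene of the member families and of the related lists, with a black bar at the median where a row holds over 1 gene. CML41 and CML37, at 2.43 and 1.27, lie to the right of the dashed 2-fold line, as does TRM26 at 1.09.

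Organ content was checked with markers. Of 10 leaf genes listed, only RCA, for Rubisco activase, has a single-gene probe set. Its signal was 12691 in Col-0 against 7432 in csb3. Root genes were represented by 4 of the 12 listed, of which PYK10 and NAI2 were up while EXPA7 and EXPA18 stayed under 50. The summed root signal was 85.0 in Col-0 against 1518 in csb3, and nearly all of the latter came from PYK10 (1220) and NAI2 (241.1), so it does not describe the list as a whole. The flower list has no gene with a single-gene probe set, and the pollen and seed genes MGH3 and LEA4-5 were below 9 on both arrays. For dividing cells, in which TRM and IQD proteins act on the division plane, 2 of 11 genes have a probe set. The mitotic kinase gene AUR1 had 87.6 in Col-0 against 119.5 in csb3, and AUR2 had 42.1 and 32.9. The part of organ content in the members' ratios was not tested.

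The number of members past 2-fold changed with the scaling between the arrays. Scaling on the spike-in controls raised the median log2 ratio of the array by 0.98. It put 11 members up (30.6%) and 0 down, while 33.6% of all probe sets were up under the same scaling. The 11 comprised TRM26, all 4 measured NET genes, IQD22, IQD28, IQD30, TRM18, TRM19 and TRM82. Relative to the array median, members measured on both arrays keep their place by construction, whereas TRM24 went from -0.21 to -1.19 and TRM25 from -0.87 to -1.18, because their csb3 signals lay below the floor.

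**Figure D4:**
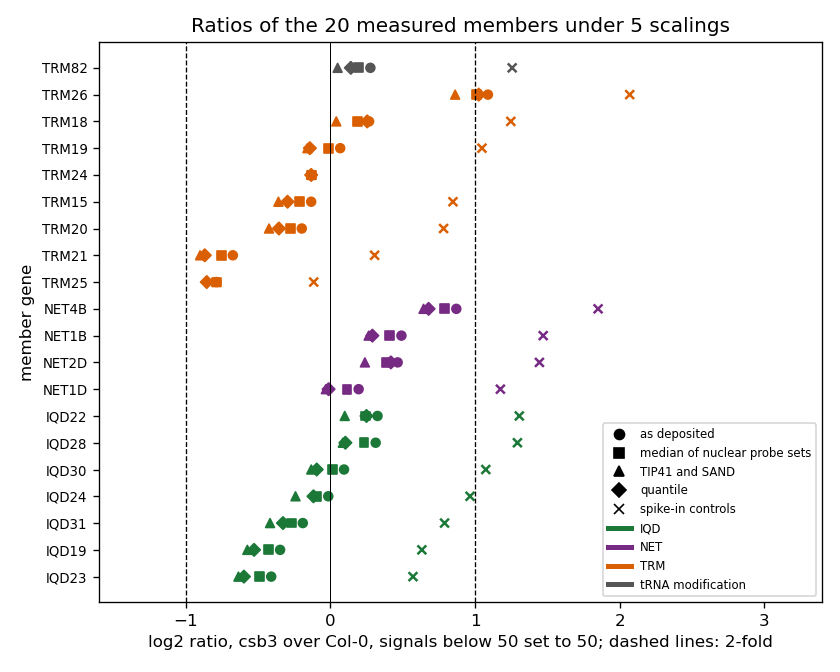
Log2 ratio of csb3 to Col-0 (horizontal axis) of the 20 measured members under 5 scalings, 1 symbol per scaling and 1 colour per family, with dashed lines at 2-fold. Spike-in scaling (crosses) lies to the right of the other 4 for each gene except TRM24, whose csb3 signal stays under 50, and TRM26 is to the right of the 2-fold line under each scaling except that on TIP41 and SAND.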

How the data were processed

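Labelled material made from total RNA of whole Col-0 and csb3 plants was hybridised to ATH1 arrays. The authors computed the deposited intensity values with MAS5 (version not given in the sources used here) and brought both arrays to the same level, a mean of 250 once 2% of the probe sets are trimmed at either end. The deposited intensity is linear, and no genome build is stated. The methods describe SAM on triplicates, which was not repeated with 1 array per genotype.

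From these signals, log2 ratios were computed with Python 3.11.15, NumPy 2.4.6 and pandas 2.3.3, and drawn with matplotlib 3.10.9. Signals below 50 were set to 50. The number of arrays limits the precision. The annotation supplied for the array pairs 13513 probe sets with 1 gene, 503 with several and leaves 8794 unlisted. RefSeq genes of TAIR10.1 matched 13436 of the 13513. Each member has 1 probe set. All members with a signal of 50 or more were named with both signals, and for related genes those at 2-fold and the brightest of each list. A few dimmer ones were named besides. Members and lists were chosen with earlier results of these data known. The counting rule was checked on copies of the Col-0 signals with changes planted in bright probe sets and no noise added. Such a check shows that the rule counts as written and cannot give a rate of false calls.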

Additional observations from a re-analysis of the deposited data

How the results depend on the processing

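No paired analysis was possible because there is only 1 array of either genotype. The count of members up at 2-fold, 1 in the deposited values, was 0 with a floor of 100, 0 with 32 added to every signal, 0 with scaling on TIP41 and SAND, 3 without a floor (TRM26, NET3C and TRM34) and 11 with scaling on the spike-in controls. The count of members down, 0 in the deposited values, was 2 with a floor of 20 (TRM24 and TRM25) and 5 without a floor, where IQD18, NET1C and NET3B were added, all 3 with signals below 50. The median log2 ratio of measured members was 0.97 with spike-in scaling, over 23 members, because a higher csb3 level brought more of them to 50. Scaling on the median of nuclear probe sets and quantile normalisation left TRM26 as the single call. Averaging probe sets of a gene and leaving out shared probe sets changed nothing, since each member has 1 probe set and none is of the shared type. Of the 22810 probe sets on the array, 2698 were up and 3559 down without a floor, against 1041 and 624 in the deposited values. The counts were 1497 and 1291 with a floor of 20, 701 and 473 with a floor of 100, and 927 and 525 with 32 added. They were 660 and 1174 with reference gene scaling, and 7671 and 80 with spike-in scaling. The 2 members down with a floor of 20 are too few to set the members apart from the array. Dim signals limit 16 of the 36 members, for which no ratio is given with the floor of 50.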
